A study of Liolaemus parthenos with 3 samples.

Results

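The brain library of the parthenogenetic lizard Liolaemus parthenos was compared transcript by transcript with the libraries of the 2 other tissues of the same animal, over all 480 assembled transcripts that the deposited quantification files hold. The members are thus all 480 of 480 transcripts, and each was also followed as part of its assembled component, the set of variants that share a name up to the final variant number. There were 418 components, 381 with 1 transcript and 37 with 2 or more.

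The study set out to try a way of measuring transposable element transcripts without a genome. Brain, ovary and liver were taken from 1 adult animal, and each gave 1 library from total RNA without strand information, so reads of an element cannot be told from reads of a gene on the opposite strand. File names and records of the other tissues conflict, with the ovary record holding the liver-named file and the liver record the ovary-named one. These libraries are called ovary-labelled and liver-labelled here after their records, and a transcript is called higher or lower in brain only where that held against both. Exchanging the names changes none of these calls, whereas values against 1 of the libraries alone rest on its label. The files name no genes, so the tissue labels could not be checked against marker genes, and fewer cells of a type and less RNA per cell cannot be told apart in these tissue samples.

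Retrotransposons copy themselves through RNA, so a transcript of an element is the form from which a new copy can be made. Long interspersed elements (LINEs), here mostly of the related CR1 and L2 clades and of L1, carry their own reverse transcriptase, and most of their genomic copies are truncated at the 5′ end. Elements with long terminal repeats (LTRs) include endogenous retroviruses, which are the remains of retroviral integrations. The element names used here group with them the DIRS and Ngaro elements, which insert by a tyrosine recombinase in place of an integrase. An RNA that carries element sequence can also be part of a longer host transcript, which these files cannot show.

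The files assigned 16405 reads in brain, 4651 in the ovary-labelled library and 10644 in the liver-labelled library to the 480 transcripts. The median transcript had 7.67 reads in brain and 1 in each of the others. Values are given as estimated reads, as the share of the reads of a library, or as TPM, which corrects for length and sums to 1000000 over the 480. With 1 library per tissue there was no test and no spread between animals, and the 95% intervals cover counting error only. A transcript was counted as higher or lower in brain when the ratio of read shares was at least 2 against both other libraries, each pair held at least 20 reads, and each interval lay on the same side of 1. A library with 0 reads was set at a floor of 3 reads, which is 0.0645% of the reads of the ovary-labelled library and 0.0282% of the other, and a fold is then written as at least its value against that floor. The lower limit of the exact interval is smaller, since it also takes in the counting error of the brain reads and of the 0, and it is given beside such a fold.

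Brain had reads for more of these transcripts than either other library. Of the 480 transcripts, 445 had reads in brain, 262 in the ovary-labelled and 290 in the liver-labelled library. In brain alone, 116 transcripts had reads, against 10 in the ovary-labelled library alone and 11 in the liver-labelled one alone. Brain was also the deepest of the files. With every library thinned to the depth of the shallowest, the expected numbers were 117 for brain alone, 29.0 and 21.1, so the order of brain over the others was the same at equal depth. Thinning cannot correct for how the 480 were assembled and selected, which is unknown. The order thus holds for this set of transcripts only.

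**Figure D1:**
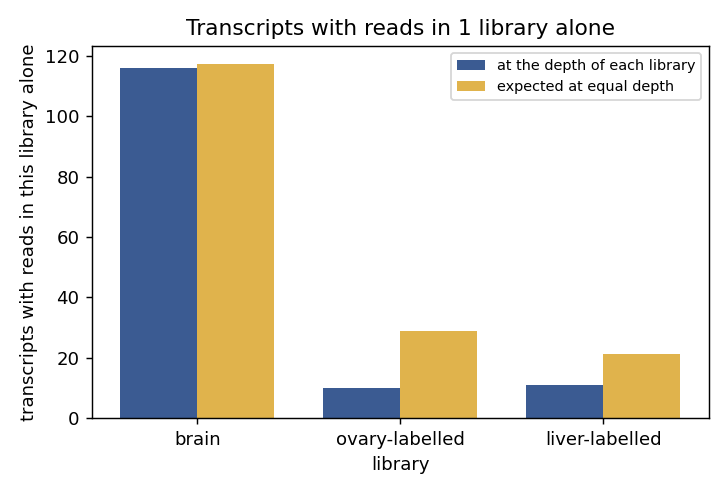
Number of transcripts (y axis) with reads in 1 library and 0 in both others, for each library (x axis), at the depth of each library and on average after thinning all libraries to equal depth. Brain has 116 such transcripts against 10 and 11, and 117 against 29.0 and 21.1 at equal depth.

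Most of the 116 transcripts had few reads. Their median was 6 reads, 79 of them had under 10 and 18 had at least 20, and together they made up 8.71% of the reads of brain. Some are variants of components that had reads in the other libraries. The one with most reads, the Ngaro transcript TRINITY_DN19128_c0_g2_i5 with 201, belongs to a component with 52 and 35 reads there. How reads were split between such variants was not tested. By element, beside 116 of 480 over all, 55 of the 198 CR1 transcripts, 40 of the 159 L2, 7 of the 30 L1, 5 of the 27 DIRS and 1 of the 9 Ngaro transcripts were in this set. So were 3 of the 5 transcripts of BovB, a LINE of the RTE clade, 2 of the 12 of Penelope, 1 of the 4 of the LTR element Copia and both of SINE2, the short elements derived from transfer RNA genes. The shares of CR1, L2 and L1 were near that over all, and those of BovB, Copia and SINE2 rest on very few transcripts. The median length of the 116, 270.5 bases, was near the 284 bases of all transcripts. In the opposite direction, 7 transcripts had 0 reads in brain and reads in both others, and 22.2 were expected at equal depth.

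The transcripts that led in brain by reads were mostly not those that stood apart from the other tissues. The top 10 took 49.5% of the reads of brain, and 1 of them, an ERV3 transcript, was higher than in both other libraries. The CR1 transcript TRINITY_DN7542_c1_g2_i3, 439 bases long, had the highest TPM in brain, 72744, against 106928 in the ovary-labelled library and 43472 in the liver-labelled one, so brain lay between the others. The L2 transcript TRINITY_DN79_c0_g1_i8 (4159 bases) took 2.65% of reads in brain, 2.20% in the ovary-labelled library and 2.65% in the liver-labelled one. The L2 transcript TRINITY_DN5791_c0_g2_i1 (3074 bases) took 2.42%, 2.29% and 0.963% in the same order. For both L2 transcripts, the interval of brain over the ovary-labelled library included 1, at 0.972 to 1.52 and 0.848 to 1.31.

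Ranked by TPM, short transcripts came forward: 9 of the first 10 in brain were under 450 bases, and 5 of the 10 were higher there than in both others by the rule on read shares. The L2 transcript TRINITY_DN12077_c0_g1_i1, 206 bases long, was next with a TPM of 25955 in brain, 3655 in the ovary-labelled library and 5331 in the liver-labelled one. The CR1 transcript TRINITY_DN8150_c6_g1_i1 (215 bases) had a TPM of 16558 in brain and 22209 in the liver-labelled library, but 0 in the ovary-labelled one. Another CR1 transcript, TRINITY_DN36687_c2_g1_i1 (201 bases), had a TPM of 15603 in brain, 51773 in the ovary-labelled library and 11897 in the liver-labelled one. Neither of these CR1 transcripts passed the rule against both others. The same was so for the L2 transcript TRINITY_DN92507_c0_g1_i4, with 40 reads in brain, 16 in the ovary-labelled and 21 in the liver-labelled library, and for the CR1 transcript TRINITY_DN276_c4_g2_i1, with 44.1, 9.16 and 5.23 reads. The tenth by TPM, the CR1 transcript TRINITY_DN87229_c0_g1_i3, was higher in brain, with 47 reads against 2 in each of the others, 6.66-fold (1.74 to 56.6) and 15.2-fold (3.99 to 130).

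Of the 113 transcripts with enough reads in both comparisons, 32 were higher in brain than in both other libraries (28.3%) and 4 were lower than in both (3.54%). The 32 had a median length of 406 bases, against 448 bases for the 113, and a median of 44.0 reads in brain. Of them, 14 had 0 reads in both other libraries, 7 had 0 reads in 1 of these, and 11 had reads in all 3. With the bound of the interval nearest to 1 required to be at least 2-fold, 17 were higher and 2 lower. The typical transcript with enough reads leaned to brain too. The median log2 ratio of read shares was 0.92 over the ovary-labelled library (120 transcripts) and 1.31 over the liver-labelled one (135 transcripts). The minimum of reads itself favoured brain, which is the deepest library and part of both pairs. A transcript low in brain had to reach that minimum mostly with reads of each other library. Without the minimum, more transcripts were lower in brain, as given below. No more could be higher, because the floor and the interval against the ovary-labelled library already asked for at least that many reads. How much of the lean to brain, or of the contrast of 32 with 4, comes from the minimum was not tested. The size of the lean also depended on how the libraries were scaled. TMM factors moved every log2 ratio by -0.082 and -0.77, median-of-ratios factors moved them by -0.18 and -0.91, and TPM moved the median transcript by 0.054 and -0.74. Against the ovary-labelled library alone, 32.5% of the 120 were higher and 10.8% lower, and against the liver-labelled library alone 51.1% of the 135 were higher and 16.3% lower. Under the 3 scalings, higher transcripts against both numbered 29, 28 and 40, and 29, 28 and 31 of these were among the 32.

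**Figure D2:**
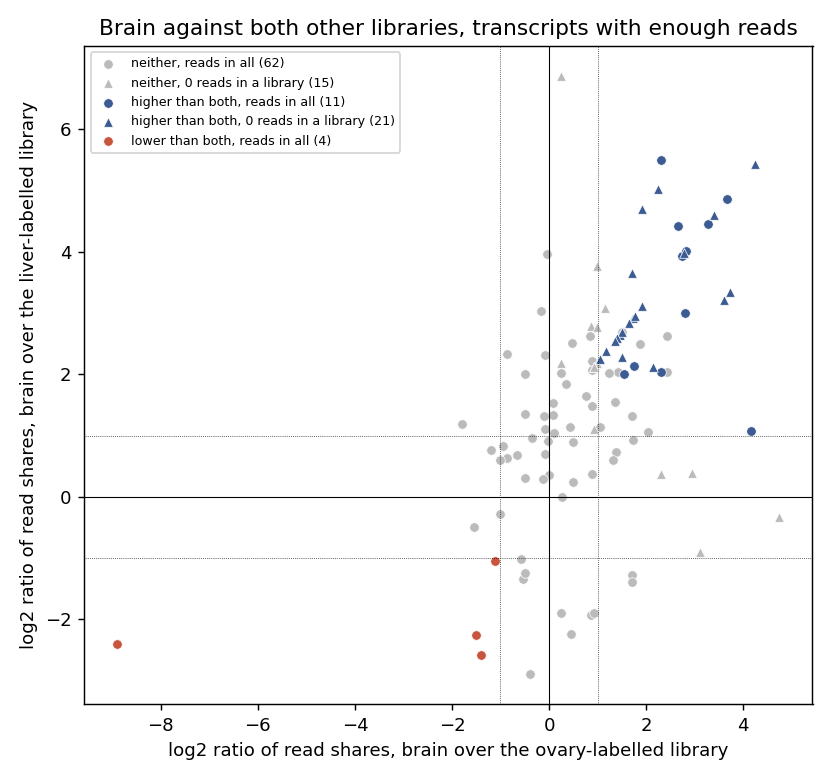
Log2 ratio of read shares of brain over the ovary-labelled library (x axis) and over the liver-labelled one (y axis), 1 point per transcript with enough reads; triangles mark transcripts with 0 reads in a library, set at the floor of 3 reads, and dotted lines mark a ratio of 2. The 32 blue points are higher in brain than in both and the 4 red points lower.

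CR1 gave more of the higher transcripts than any other element, 18 of 32, and it also has the most transcripts. Of its 198 transcripts, 60 had enough reads, and 18 of these (30.0%) were higher in brain than in both others and 2 lower, close to the 28.3% and 3.54% over all transcripts. Summed over all 198, CR1 took 41.0% of reads in brain, 45.6% and 45.0%, a ratio of 0.899 (0.856 to 0.944) and 0.912 (0.878 to 0.946), while as TPM the ratio was 1.15 and 1.01. The 18 were 209 to 1269 bases long, and 9 of them had 0 reads in both other libraries. TRINITY_DN16392_c1_g1_i3, 325 bases long, had 112 reads in brain and 0 in both others. Its share was at least 10.6-fold higher than in the ovary-labelled library (lower limit 8.47) and at least 24.2-fold higher than in the liver-labelled one (lower limit 19.4), and its TPM in brain was 15841, the sixth highest. TRINITY_DN83796_c0_g1_i1, the longest of the 18 at 1269 bases, had 73.0 reads in brain and 0 in both others. Its share was at least 6.90-fold (lower limit 5.47) and at least 15.8-fold (lower limit 12.5) higher. Both were the only variant of their component among the 480, so none of their reads were split with another variant among these.

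Further CR1 transcripts were shorter. TRINITY_DN52251_c1_g1_i1 (410 bases) had 50 reads in brain, 0 in the ovary-labelled library and 1 in the liver-labelled one. TRINITY_DN144853_c0_g1_i1 (268 bases) had 40.0, 0 and 1 reads in the same order, and TRINITY_DN53923_c3_g1_i1 (209 bases) had 47.0, 1 and 0. TRINITY_DN19477_c1_g1_i1 (358 bases), TRINITY_DN38936_c1_g1_i1 (224 bases) and TRINITY_DN13433_c0_g1_i1 (232 bases) had 36.3, 35.0 and 33.0 reads in brain and 0 in both others. Against the ovary-labelled library, these last 3 were at least 3.12 to 3.40-fold higher by the floor, with lower limits of 2.397 to 2.63. TRINITY_DN739_c14_g1_i1 (448 bases) had reads in every library, 70.0 in brain, 4 in the ovary-labelled library and 1 in the liver-labelled one. Its share was 4.96-fold higher than in the former (1.85 to 18.7) and 45.4-fold higher than in the latter (7.89 to 1819), and the upper bound shows how little a single read fixes.

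Of the 159 L2 transcripts, 26 had enough reads, and 8 of these (30.8%) were higher in brain than in both others and 0 lower. Both are again near the shares over all transcripts, 28.3% and 3.54%. Against the ovary-labelled library alone, 9 of 29 were higher and 2 lower, and against the liver-labelled one alone 18 of 30 and 0. TRINITY_DN12077_c0_g1_i1 had 74.0 reads in brain, 3 in the ovary-labelled library and 6 in the liver-labelled one, 6.99-fold (2.302 to 34.7) and 8.002-fold (3.51 to 22.5) higher. TRINITY_DN79_c0_g1_i22 (3129 bases), the longest of the 8, had 94.6, 7.87 and 14.4 reads, which was 3.37-fold (1.64 to 8.02) and 4.403-fold (2.50 to 8.36) higher. It is 1 of 6 variants and held 5.88%, 2.67% and 1.99% of the reads of its component. The component as a whole was 1.55-fold and 1.45-fold higher in brain and was not called. How reads were split between its variants was not tested, and the intervals of the variant do not cover it. TRINITY_DN43001_c0_g2_i2 (641 bases) had 58.0, 5 and 0 reads. The other variant of its component, 490 bases long, had 0, 0 and 4, and how reads were split between the 2 was not tested. The component was called higher too. Summed over all 159 transcripts, L2 took 21.8% of reads in brain, 17.3% in the ovary-labelled library and 10.4% in the liver-labelled one. The ratio of summed shares was 1.26 (1.17 to 1.36) and 2.09 (1.96 to 2.24), and it was above 1 as TPM too, at 1.48 and 1.69, and 1.11 and 1.12 with factors from medians of ratios.

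L1 was represented by few transcripts with enough reads, and 2 of these 3 were higher in brain than in both others, against 28.3% over all transcripts. So small a number does not set L1 apart. TRINITY_DN222708_c0_g1_i1, 1262 bases long, had 133 reads in brain, 6 in the ovary-labelled library and 4 in the liver-labelled one. Its share was 6.28-fold (2.81 to 17.4) and 21.6-fold (8.23 to 80.3) higher, and as TPM 6.81-fold and 11.4-fold higher. It had the most brain reads among the higher transcripts with reads in all 3 libraries, after the ERV3 transcript. TRINITY_DN266673_c0_g1_i1 (579 bases) had 22 reads in brain and 0 in both others, and its ratio of 2.08 to the floor of the ovary-labelled library (lower limit 1.55) dropped under 2 when libraries were scaled by TMM, by medians of ratios or without the top transcripts. Summed over its 30 transcripts, L1 took 2.09% of reads in brain, 0.903% and 0.658%, but as TPM the ratio over the liver-labelled library was 0.973.

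Among DIRS and Ngaro, 3 of the 12 transcripts with enough reads, of 36, were higher in brain than in both others and 0 were lower, a share of 25% that is near the 28.3% over all transcripts. The Ngaro transcript TRINITY_DN19128_c0_g2_i5, 1223 bases long, ranked first of all 480 by the smaller of its lower limits against the other libraries. It had 201 reads in brain, 1.23% of the library, and 0 in both others. Its share was at least 19.0-fold higher than in the ovary-labelled library (lower limit 15.3) and at least 43.5-fold higher than in the liver-labelled one (lower limit 35.0). These limits do not cover how reads were split between variants, and the component with all its variants was 1.60-fold (1.19 to 2.19) and 5.43-fold (3.82 to 7.95) higher in brain. The DIRS transcript TRINITY_DN190824_c1_g1_i1 (1255 bases) had 40.0 reads in brain and 0 in both others, at least 3.78-fold (lower limit 2.93) and 8.65-fold (lower limit 6.72) higher. TRINITY_DN49821_c0_g3_i2 (949 bases), also DIRS, had 62.0, 6 and 10.4 reads, 2.93-fold (1.27 to 8.29) and 4.02-fold (2.05 to 8.80) higher. The summed share of the 36 transcripts was 5.41% in brain, 2.99% and 2.09%, 1.81-fold (1.51 to 2.18) and 2.59-fold (2.24 to 3.02) higher, and it was 1.41-fold and 1.32-fold higher as TPM.

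**Figure D3:**
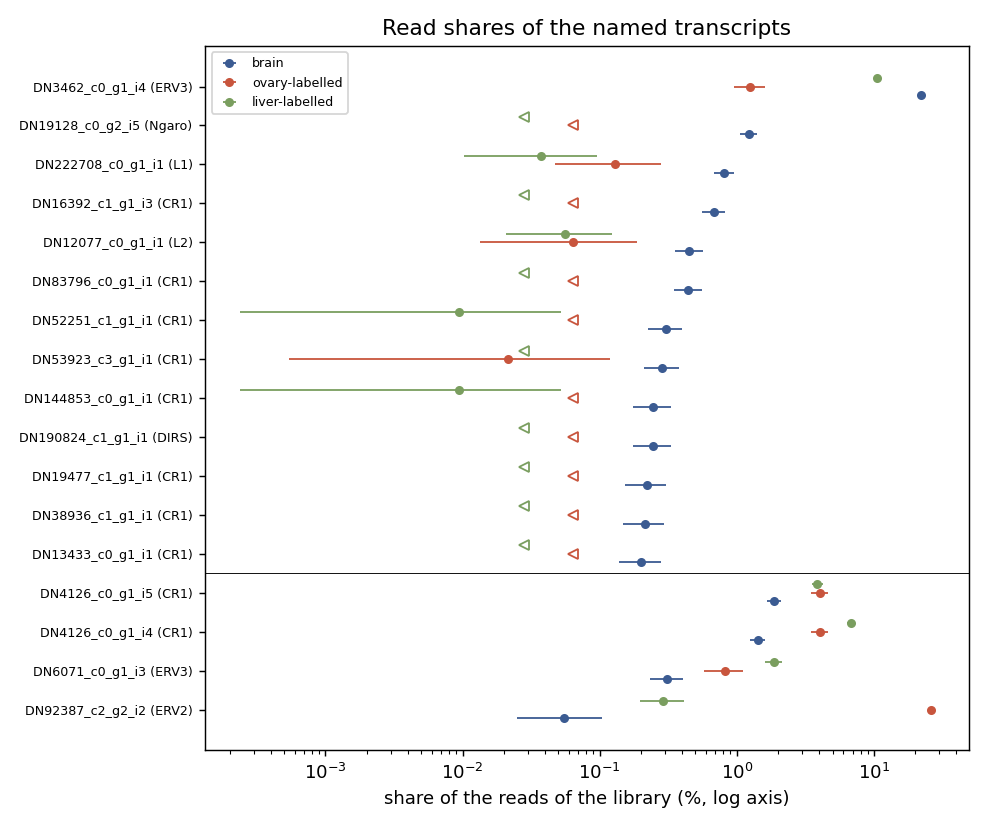
Share of the reads of each library (x axis, log scale, %) for the 12 transcripts highest by rank and the ERV3 transcript DN3462_c0_g1_i4, above the line, and the 4 lower ones, below it; bars are exact 95% intervals of counting error and open triangles mark 0 reads, drawn at the floor of 3 reads. Brain (blue) lies right of both other libraries above the line and left of both below it.

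The endogenous retroviruses went both ways. Of 8 transcripts, 7 had enough reads, 1 was higher in brain than in both others (14.3%) and 2 were lower (28.6%, against 3.54% of all transcripts). Of the 8, 6 are variants of the single component TRINITY_DN6071_c0_g1 and can share reads, so these percentages do not count independent members. The summed share of all 8 was 27.1% in brain, 32.1% in the ovary-labelled library and 39.1% in the liver-labelled one, a ratio of 0.846 (0.798 to 0.898) and 0.693 (0.664 to 0.723). As TPM the ratio was 0.0990 and 0.319. Over the ovary-labelled library the sum joins opposite parts. ERV3 took 27.1% in brain and 5.96% there, 4.55-fold (4.02 to 5.15) higher, while ERV2 took 0.0549% and 26.1%. ERV2 has 1 transcript here. Of the ERV3 reads, TRINITY_DN3462_c0_g1_i4 alone held 3638 of 4441 in brain and 58.0 of 277 in the ovary-labelled library. Over the liver-labelled library the ratio for ERV3 was 0.697 (0.668 to 0.727). The ERV3 transcript TRINITY_DN3462_c0_g1_i4, 5332 bases long, had 3638 reads in brain, 58.0 in the ovary-labelled library and 1122 in the liver-labelled one. It was 17.8-fold (13.7 to 23.5) and 2.10-fold (1.97 to 2.25) higher in brain. The second of these lay close to the limit of 2, and as TPM it was 1.22, so the transcript was no longer counted as higher under TPM, TMM or median-of-ratios scaling. Without this transcript the other 31 took 10.2% of the reads of brain, 0.922% of the ovary-labelled library and 0.613% of the liver-labelled one.

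A second ERV3 transcript, TRINITY_DN6071_c0_g1_i3 (3017 bases), was lower in brain than in both others. It had 50.7 reads in brain, 38.2 in the ovary-labelled library and 198 in the liver-labelled one, 2.63-fold (1.68 to 4.08) and 5.98-fold (4.38 to 8.31) lower in brain. Its component TRINITY_DN6071_c0_g1 took 4.89% of reads in brain, 4.71% and 28.3%, a ratio over the ovary-labelled library of 1.04 (0.894 to 1.21), and this variant held 6.32% of the reads of the component in brain against 17.5% there. The only ERV2 transcript, TRINITY_DN92387_c2_g2_i2 (588 bases), had 9 reads in brain, 1214 in the ovary-labelled library and 31.0 in the liver-labelled one. It was 476-fold (250 to 1043) and 5.31-fold (2.47 to 12.7) lower in brain, and lower under all 4 other scalings. The other lower transcripts were 2 long variants of the CR1 component TRINITY_DN4126_c0_g1. TRINITY_DN4126_c0_g1_i4 (3643 bases) had 234 reads in brain, 187 and 726 in the others, 2.82-fold (2.31 to 3.43) and 4.78-fold (4.12 to 5.57) lower in brain. TRINITY_DN4126_c0_g1_i5 (7520 bases) had 307, 187 and 413 reads, 2.15-fold (1.78 to 2.59) and 2.07-fold (1.78 to 2.41) lower. The 4 lower transcripts kept that direction and call under TPM, TMM, median-of-ratios factors and totals without the top transcripts. None of these scalings changes how reads were split between variants. Variant TRINITY_DN4126_c0_g1_i3 (3640 bases) had 543 reads in brain, 130 in the ovary-labelled library and 0.004 in the liver-labelled one. How reads were split between it and TRINITY_DN4126_c0_g1_i4 was not tested. Nor was the split between TRINITY_DN4126_c0_g1_i5 and the variant TRINITY_DN4126_c0_g1_i2 of 7524 bases. The latter took 2.87% of reads in brain, 1.56% in the ovary-labelled library and 11.0% in the liver-labelled one.

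The remaining elements gave no calls. Gypsy with Copia, Penelope, the RTE clade (BovB and RTEX) and the minor LINE clades I and NeSL each had 1 transcript with enough reads in both comparisons among their 11, 12, 9 and 11 transcripts, and none of these was called. The same held for the 5 SINE transcripts. Beside the higher transcripts given above, a further 13 were 8 of CR1 and 5 of L2. They were 237 to 668 bases long, with 22 to 70 reads in brain. In the ovary-labelled library they had 0 to 4 reads and in the liver-labelled one 0 to 11.

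Higher transcripts were found in every length class, while the 4 lower ones were all over 500 bases. The minimum of reads bears on this contrast, since short transcripts low in brain could miss it. TRINITY_DN220553_c0_g1_i1 (354 bases) did so, with 0 reads in brain, 7 in the ovary-labelled library and 6 in the liver-labelled one. So did the variants of TRINITY_DN4644_c0_g2 (242 and 306 bases), with 1 read each in brain and 5 and 14 in the ovary-labelled library. The contrast thus does not show that lower transcripts are longer. In transcripts of up to 250 bases, 6 of 21 with enough reads were higher (28.6%), in those above that and up to 500 bases 13 of 39 (33.3%), in those above 500 and up to 1000 bases 7 of 25 (28%) and in those over 1000 bases 6 of 28 (21.4%). The lower ones were 1 of up to 1000 bases and 3 above. Under TPM or median-of-ratios scaling, 2 transcripts of up to 500 bases were lower too. Transcripts over 1000 bases, 34 in all, took 62.3% of the reads of brain, 43.5% of the ovary-labelled library and 81.0% of the liver-labelled one, but 6.60%, 4.65% and 12.9% of the TPM.

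**Figure D4:**
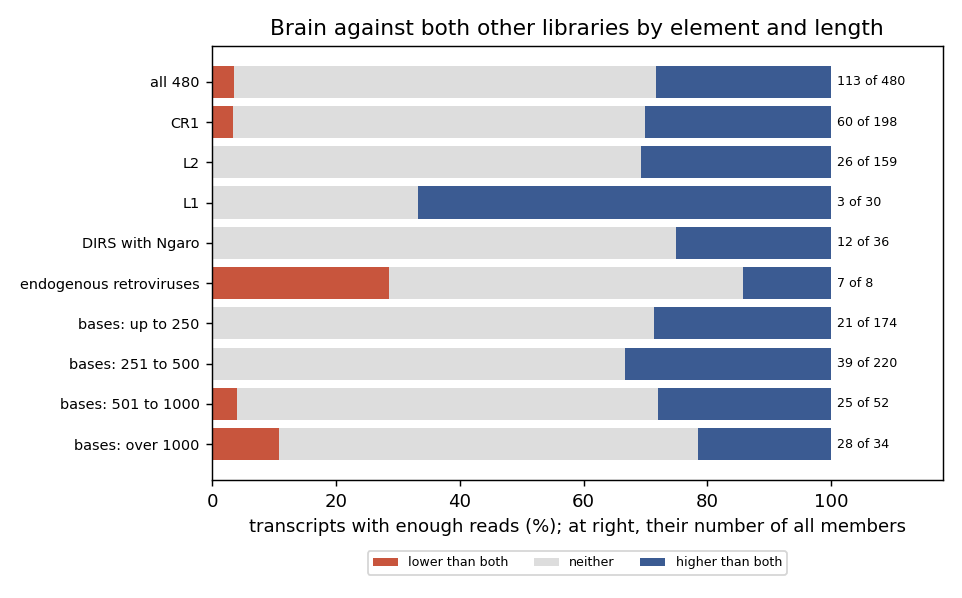
Percentage of transcripts with enough reads (x axis) that were higher (blue), lower (red) or neither (grey) in brain against both other libraries, by element group and by length class; the numbers at right give how many of all members had enough reads. The share of higher calls is 28.3% over all 480, 30.0% in CR1 and 30.8% in L2, and L1 rests on 3 transcripts.

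Summing the variants of each component left the number of higher calls as it was. Of 95 components with enough reads, 32 were higher in brain than in both others (33.7%) and 2 were lower (2.11%). Of the 32, 29 held a transcript that was itself higher, and 3 passed only once their variants were summed. Among the 8 that stood farthest apart, 7 held a transcript given above (TRINITY_DN16392_c1_g1, TRINITY_DN83796_c0_g1, TRINITY_DN52251_c1_g1, TRINITY_DN144853_c0_g1, TRINITY_DN190824_c1_g1, TRINITY_DN222708_c0_g1 and TRINITY_DN19477_c1_g1). The eighth was the CR1 component TRINITY_DN15642_c6_g1, with 2 variants and 41.0 reads in brain and 0 in both others, at least 3.88-fold (lower limit 3.01) and 8.87-fold (lower limit 6.89) higher. Conversely, 2 of the higher transcripts (TRINITY_DN19128_c0_g2_i5 and TRINITY_DN79_c0_g1_i22) and 3 of the lower ones belonged to components that were not called.

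The lower components were the single ERV2 transcript and the CR1 component TRINITY_DN4644_c0_g2, which no single transcript had brought out. Its variants, 242 and 306 bases long, together had 2 reads in brain, 19.0 in the ovary-labelled library and 247 in the liver-labelled one. The share in brain was 33.5-fold (8.08 to 297) and 190-fold (52.1 to 1581) lower. Each variant had 1 read in brain, and against the ovary-labelled library each held fewer than the 20 reads asked for. The difference of this component rests on 21 reads in 1 of the comparisons.

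Components with several variants showed whether the same variant led in every tissue. Only 7 had at least 20 reads in each library, and in 4 of them 1 variant led by TPM in all 3. In 2, the leading variant of brain differed from those of both other libraries. In the Ngaro component TRINITY_DN19128_c0_g2, variant TRINITY_DN19128_c0_g2_i5 held 65.5% of the TPM of the component in brain and 0% in both others. Its share of the reads of the component was 68.6% (62.9 to 73.9) in brain, while 0 of 52.0 and 0 of 35.0 reads left it at most 6.85% and 10.003%. The leading variants elsewhere were TRINITY_DN19128_c0_g2_i10, with 41.7% of the TPM in the ovary-labelled library, and TRINITY_DN19128_c0_g2_i2, with 40.6% in the liver-labelled one. TRINITY_DN19128_c0_g2_i8 was level with the former at 41.2%, and by reads it led in the liver-labelled library, with 38.3% against 35.1%. The component as a whole had 293 reads in brain, 52.0 and 35.0 in the others, and against the ovary-labelled library it did not reach 2-fold. Variant i8 has the same length of 1223 bases as i5, and how the quantifier split reads between the 2 was not tested.

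In the CR1 component TRINITY_DN4126_c0_g1, the variant that led in brain had almost no reads in the liver-labelled library. TRINITY_DN4126_c0_g1_i3 (3640 bases) held 47.3% of the TPM of the component in brain, 28.6% in the ovary-labelled library and nearly none in the liver-labelled one, where it had 0.004 reads against 543 in brain. TRINITY_DN4126_c0_g1_i4, 3 bases longer, held 20.4%, 41.2% and 48.8% in the same order. The component had 1554 reads in brain, 577 and 2306 in the others. Its summed share was 1.31-fold lower than in the ovary-labelled library and 2.29-fold lower than in the liver-labelled one, which did not pass the rule against both. Variant i5 held 12.7%, 21.7% and 13.4% and variant i2 19.5%, 8.41% and 37.8%. The L2 component TRINITY_DN79_c0_g1, with 6 variants and 1608 reads in brain, was led by TRINITY_DN79_c0_g1_i8 in all 3 libraries. Its share was 1.55-fold (1.36 to 1.76) and 1.45-fold (1.32 to 1.58) higher in brain, but over the liver-labelled library the ratio was 0.919 as TPM, 0.849 with TMM and 0.770 from medians of ratios.

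The variants of these components made up most of the top 10 of brain by reads. TRINITY_DN4126_c0_g1_i2 (7524 bases) had 470 reads in brain, 72.6 in the ovary-labelled library and 1167 in the liver-labelled one, so its share in brain lay between the others. In the CR1 component TRINITY_DN3590_c0_g1, TRINITY_DN3590_c0_g1_i1 (3839 bases) took 3.60% of reads in brain, 5.36% and 7.26%, below both but only 1.49-fold against the former, and TRINITY_DN3590_c0_g1_i3 (3965 bases) took 3.55%, 3.87% and 2.91%. TRINITY_DN79_c0_g1_i9 (3522 bases) took 2.11%, 1.58% and 0.959%, above both but only 1.35-fold (1.04 to 1.76) against the ovary-labelled library. The ERV3 transcript TRINITY_DN6071_c0_g1_i1 (3336 bases) took 2.03%, 2.66% and 15.1%, and it led its component in every library. None of these 5 passed the rule against both libraries.

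**Figure D5:**
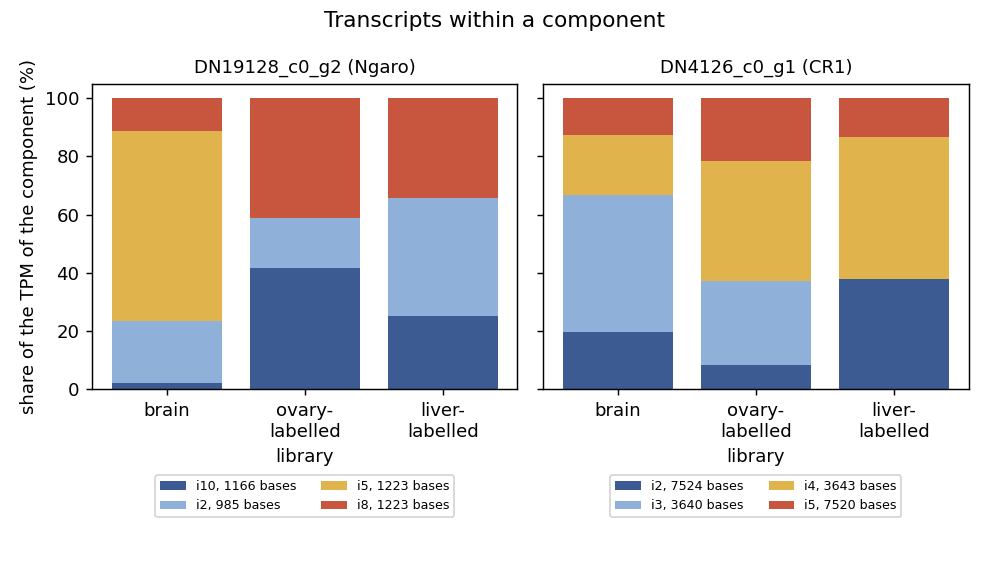
Share of the TPM of a component (y axis, %) held by each of its variants in the 3 libraries (x axis), for the Ngaro component DN19128_c0_g2 and the CR1 component DN4126_c0_g1. Variant i5 of the first holds 65.5% in brain and 0% elsewhere, and variant i3 of the second holds 47.3% in brain and 28.6% and nearly 0% elsewhere.

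Brain, the deepest library, had 0 reads for 35 transcripts, and at equal depth 375 of the 480 were expected to have reads in it. Of the 35 with 0 reads in brain, 2 had at least 20 reads in the other libraries together, and both belong to components that brain did express through other variants. TRINITY_DN6071_c0_g1_i4, an ERV3 transcript of 3004 bases, had 213 reads in the liver-labelled library and 0 in the ovary-labelled one. TRINITY_DN3590_c0_g1_i4, a CR1 transcript of 3972 bases, had 54.4 reads in the ovary-labelled library and 0 in the liver-labelled one. Each was thus seen in 1 other library only. Next came an L2 transcript, TRINITY_DN59919_c0_g3_i1, with 16.0 reads in the ovary-labelled library, a Copia transcript, TRINITY_DN78893_c0_g1_i1, with 1 and 13.0 reads, and a CR1 transcript, TRINITY_DN53611_c0_g1_i1, with 13.9 and 0. The 0 of 16405 reads in brain allows a share of up to 0.0225% for any of them by the exact interval. For TRINITY_DN6071_c0_g1_i4 and TRINITY_DN3590_c0_g1_i4 this bound does not cover how reads were split between variants, which was not tested.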

How the data were processed

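Estimated counts (NumReads) and TPM per assembled transcript were deposited by the authors with the columns that Salmon writes (per the file headers), with 480 transcripts in each of 3 files. TPM as deposited sums to 1000000 over these 480. Lengths and effective lengths in bases are other columns of the same deposited files. The submitters' processing notes name Bowtie2 2.3.4.1 but no role for it. The assembly, annotation and quantifier version were not given in the sources used here. Element names came from a further deposited table of 19207 transcripts, which names 479 of the 480. How the 480 were selected is unknown, and a selection by expression would bear on every count and share. The 2 deposited subfamily tables were not used.

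Estimated counts were rounded to whole reads. Ratios of read shares carry exact conditional binomial 95% intervals and shares within a library or component exact Clopper-Pearson 95% intervals (SciPy 1.17.1). They treat reads as independent molecules and do not cover the fractional assignment of reads between similar transcripts, so they may be too narrow. TMM factors came from edgeR 4.0.16. Numbers at equal depth are exact hypergeometric expectations. Because each tissue has 1 library, no test or p-value is given. The named transcripts are the 12 on each side that stand farthest from 1 by the nearer bound of the interval, the 10 with most reads and with highest TPM in brain, the 5 leading ones with reads in brain alone or with 0 in brain, and up to 3 called members on each side of each element group. For components they are the 8 on each side and those whose leading variant differs. Members, lists and rules were chosen with earlier results of these data known.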

Additional observations from a re-analysis of the deposited data

How the results depend on the processing

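Depth limits every call: a transcript with 0 reads in the ovary-labelled library needs at least 22 reads in brain to reach 2-fold against the floor. The 32 higher and 4 lower transcripts became 12 and 3 with at least 50 reads, 15 and 1 with a ratio of at least 4, and 32 and 8 with no minimum of reads. In 2 alternatives added after seeing the data, 11 higher ones had reads in all 3 libraries, and 17 and 2 had an interval bound at least 2-fold from 1. The 32 higher and 2 lower components became 12 and 0 with at least 50 reads, 15 and 2 with a ratio of at least 4, and 13 and 19 higher ones under the 2 added alternatives. Lower components numbered 4 with no minimum of reads and 4 by the interval alone. A higher minimum of reads, a larger ratio or a stricter bound leaves fewer by construction. Transcripts with 0 in brain and reads in both others numbered 7, and 22.2 were expected at equal depth, where brain loses most reads. Under the others tried (the 4 scalings, at least 10 reads, a 99% interval, a floor of 1 read), counts of transcripts and components against both stayed within 1.5 times. Among summed shares whose interval excluded 1, the direction turned for CR1 as TPM (1.15 over the ovary-labelled library and 1.01 over the liver-labelled one) and for L1 as TPM (0.973 over the liver-labelled one). Over the same library they also turned for LINEs with TMM (0.678) and median-of-ratios factors (0.615), and for transcripts of up to 250 bases as TPM (0.866), with TMM (0.831) and with median-of-ratios factors (0.754). Among those whose interval included 1, it turned for the RTE clade over the liver-labelled library (1.18 to 0.812, 0.691 and 0.627 by TPM, TMM and medians of ratios) and for LINEs over the ovary-labelled one (1.03 to 0.972 and 0.908 by TMM and medians of ratios and 0.952 without the top transcripts). The cause was not tested. No named transcript or component called in a comparison turned in direction: of 388 recomputed ratios, 298 stayed within the interval and 90 moved out of it. No paired analysis was possible because each tissue has 1 library.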

Other observations

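Within 1 assembly cluster, the estimates of neighbouring components could go apart, in a pair singled out after its values were seen. The CR1 transcript TRINITY_DN7542_c1_g1_i6 (425 bases) had 69.8 reads in brain, 4.02 in the ovary-labelled library and 11.4 in the liver-labelled one, 4.96-fold (1.85 to 18.7) and 4.13-fold (2.17 to 8.65) higher in brain. The CR1 transcript TRINITY_DN7542_c1_g2_i3 had 787, 316 and 200 reads and was 0.706 (0.619 to 0.807) and 2.55 (2.18 to 2.997) times the share of the others, so it was lower than in 1 and higher than in the other. Both transcripts of the pair have fractional estimates of reads. How reads were split between them was not tested, and the intervals do not cover it. A single transcript, TRINITY_DN36687_c2_g1_i1 of CR1, passed the rule in opposite directions, at 0.290 (0.184 to 0.458) over the ovary-labelled library and 2.27 (1.17 to 4.74) over the liver-labelled one.

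A further 11 transcripts with enough reads had ratios of at least 2 against both others with an interval that included 1, and 0 were lower than both in that way. The component of the leading ERV3 transcript, TRINITY_DN3462_c0_g1, has 6 variants in the deposited table of element names, all named ERV3, and 1 of them is among the 480.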
